A study of Mus musculus with 9 samples.

Results

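The Msx and Dlx homeobox genes (Msx1, Msx2 and Dlx1 to Dlx6) were examined for binding of the transcription factors HOXA13 and HOXD13 in the developing mouse limb. The members were the 8 genes and every HOX13 interval whose summit lay in the body of a member or within 100 kb on either side of it, in mm10 with the GENCODE M21 annotation. The 3 Dlx pairs each made a single locus, so that there were 5 loci. The intervals of 9 peak lists that overlapped by at least 1 bp merged into 172 sites in these loci, of 193812 merged sites in the genome. Binding had been mapped by CUT&RUN, in which an antibody brings a nuclease to chromatin and the released DNA fragments are sequenced, on cells of distal forelimbs (the future digits) of B6CBAF1 embryos. Wild-type embryos at E12.5 (the embryonic day) gave 3 HOXA13 and 3 HOXD13 libraries. From the 542 line came 2 further libraries for HOXA13 at the same stage, and for HOXD13 a single one whose title gives E11.5, although the collection note shared by all samples describes 1 day. The 542 embryos carry II1, a digit enhancer of the HoxD locus, placed with a promoter and a lacZ reporter in the opposite flanking domain (T-DOM) on chromosome 2. Line 542 is a single founder line, and its embryos were homozygous by the methods of the study, while the labels name crosses of heterozygous adults. None of the 5 loci lies at or beyond the insertion, so their coordinates are the same in the wild-type and the mutant genome. Limbs of several embryos were pooled in a library, and p-values measure the spread between these pools only.

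Msx and Dlx proteins are homeodomain transcription factors of the NK-like class. In the limb, Msx1 and Msx2 are expressed in the progress zone mesenchyme, in the interdigital tissue and in the apical ectodermal ridge, and they respond to bone morphogenetic proteins (BMPs). Dlx genes mark the ridge and, later, cartilage and bone precursors, and loss of Dlx5 together with Dlx6 can split the foot. Each Dlx pair is transcribed convergently, and the stretch between both genes of a pair is known for conserved enhancers. HOXA13 and HOXD13, the products of the last genes of their clusters, are required for digit formation.

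The lists held 23939 to 117719 intervals and were made from 36.9 to 65.5 M read ends. These depths were solved from the lists themselves. The wt HOXD13 replicate 1 list was the shortest, and the single 542 HOXD13 list was the longest and the most deeply sequenced. The third wt HOXD13 library is labelled as a re-analysis of an earlier one. Lists were called in each library without a control library, so that a site missing from a list means only that it did not pass there. A library is a bulk of cells, so that fewer bound cells and less binding in each cell cannot be told apart. Peak lists hold no expression values, and the labelled tissue could not be checked against marker genes. Fold enrichment below is the height of the stacked read ends at a summit over the local background. Pileup is that height itself, given per M read ends of the library (M, the SI prefix mega). Sites are named by the nearest member and their distance in kb from its start, with a minus sign for upstream.

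The following reference stretches (GRCm38, the assembly of mm10, plus strand) run 40 bases to each side of the median summit of a site. They show a site called in all 9 lists from each of 4 loci, sites between the members of a pair, sites that hold the HOX13 consensus, and a site that was called in wild-type lists alone. The consensus was taken as CCNATAAA, CCNGTAAA, CTNATAAA or CTNGTAAA on either strand, and each match is in capitals.
Msx1 −93.5 kb, chr5:37918071-37918151: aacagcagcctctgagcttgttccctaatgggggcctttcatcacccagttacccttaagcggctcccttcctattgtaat
Msx1 98.9 kb, chr5:37725627-37725707: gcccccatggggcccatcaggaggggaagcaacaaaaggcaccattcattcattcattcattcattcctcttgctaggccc
Msx2 48.2 kb, chr13:53424795-53424875: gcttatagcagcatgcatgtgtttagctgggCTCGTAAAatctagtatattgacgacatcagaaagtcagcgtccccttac
Dlx2 −1.62 kb, chr2:71548331-71548411: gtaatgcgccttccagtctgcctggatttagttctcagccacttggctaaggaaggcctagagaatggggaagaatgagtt
Dlx1 −30.5 kb, chr2:71497585-71497665: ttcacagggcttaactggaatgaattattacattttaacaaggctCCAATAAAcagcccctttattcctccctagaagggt
Dlx3 6.64 kb, chr11:95126715-95126795: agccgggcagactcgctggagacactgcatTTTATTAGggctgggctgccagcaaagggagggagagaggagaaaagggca
Dlx4 7.43 kb, chr11:95138790-95138870: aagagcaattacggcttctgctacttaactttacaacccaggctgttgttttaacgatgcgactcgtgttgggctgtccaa
Dlx5 −32.6 kb, chr6:6914616-6914696: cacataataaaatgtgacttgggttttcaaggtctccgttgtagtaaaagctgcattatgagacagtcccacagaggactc
Dlx5 9.32 kb, chr6:6872704-6872784: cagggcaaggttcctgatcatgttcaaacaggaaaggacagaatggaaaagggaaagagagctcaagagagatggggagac

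HOX13 intervals were denser in the Msx and Dlx loci than over the genome in every library. The 3 wt HOXA13 lists held 89, 58 and 56 intervals in the loci and the 3 wt HOXD13 lists 23, 80 and 31. The 542 HOXA13 lists held 97 and 74, and the 542 HOXD13 list 108. Per Mb, the loci held 2.46 ± 0.195 (SD, n = 6) times the genome mean in the wild-type lists, with a lowest value of 2.1 and a highest of 2.65. The ratio was above 1 in 6 of 6 wild-type libraries (log2 ratio 1.30 ± 0.12, exact test by flipping the signs of the 6 values in all ways, a two-sided permutation test, p = 0.03125, the lowest p it can give). Adjusted over the 5 tests of this report (Benjamini-Hochberg), p was 0.0781. With so few libraries, no test here could pass 0.05 after this adjustment, even with every test at its lowest p. The adjusted p therefore cannot decide. The genome mean covers long stretches without genes, and whether other gene loci of this size hold as many intervals was not tested.

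**Figure D1:**
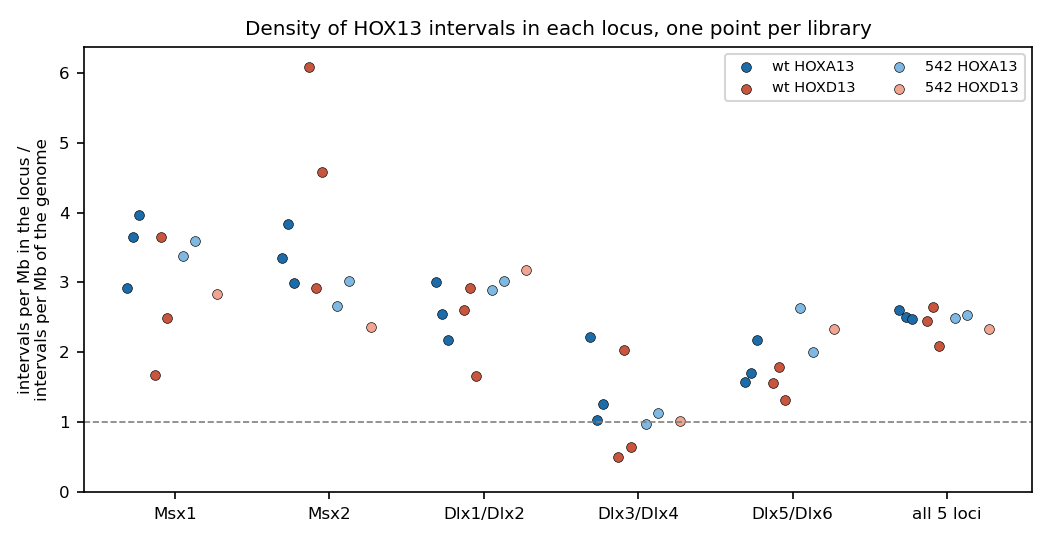
Density of intervals in each locus relative to the genome mean of the same list (y axis, ratio without unit, dashed line at 1), with a point for each of the 9 libraries. Over all 5 loci the wild-type points lie between 2.1 and 2.65, whereas the Dlx3/Dlx4 locus has points on both sides of 1, the lowest at 0.504 in wt HOXD13.

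The Msx2 locus was the densest in 4 of the 6 wild-type lists, at 3.35, 3.84 and 3.0 times the genome mean in wt HOXA13 and 6.09, 2.93 and 4.58 times in wt HOXD13. The Msx1 locus reached 2.92, 3.65 and 3.96 times in wt HOXA13 and 1.68, 3.65 and 2.49 times in wt HOXD13. The ranges of both Msx loci overlapped. The Dlx1/Dlx2 locus lay between 1.66 and 3.01 times in the wild-type lists, and the Dlx5/Dlx6 locus between 1.33 and 2.17 times. The Dlx3/Dlx4 locus was at 2.22, 1.03 and 1.26 times in wt HOXA13 and at 0.504, 2.04 and 0.642 times in wt HOXD13, on both sides of the genome mean. In the 542 lists the Dlx5/Dlx6 locus stood at 2.64, 2.01 and 2.33 times, above most of its wild-type values. The sizes of these loci were alike, at 204 to 226 kb.

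Per 10000 intervals of its list, the loci took 10.2, 9.89 and 9.76 intervals in wt HOXA13, and 9.61, 10.4 and 8.25 in wt HOXD13. The means were 9.96 ± 0.246 and 9.42 ± 1.09 (SD, n = 3 each), a log2 ratio of 0.09 (two-sided exact permutation test, p = 0.6, adjusted p = 0.75). The groups overlapped, and 3 libraries against 3 cannot go below p = 0.1 in this exact test. In 542 HOXA13 the values were 9.79 and 9.95, inside the range of wt HOXA13 (log2 ratio of wild type to 542 0.01, two-sided exact permutation test, p = 0.9, adjusted p = 0.9). That ratio turned to −0.29 when only intervals of at least 5-fold enrichment were counted (exact p = 0.3) and to −0.26 among the 20000 intervals of each list with the highest −log10 p (exact p = 0.1, the smallest that 3 against 2 allows).

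Most sites of the loci were called in few lists, in shares close to those of the genome. Of the 172 sites, 84 (48.8%) were in 1 list only, against 50.0% of all merged sites. All 9 lists shared 11 sites (6.40%), against 6.40% in the genome. All 6 wild-type lists shared 14 sites (8.14%), against 6.90%. The 14 were spread unevenly, with 6 in the Msx2 locus, 3 in Dlx1/Dlx2, 2 each in Msx1 and Dlx5/Dlx6, and 1 in Dlx3/Dlx4. The number shared by every list rested on wt HOXD13 replicate 1, the shortest list, without which 18 sites were in all the others in place of 11.

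By antibody, 58 sites (33.7%) were called in at least 1 wild-type list of each antibody, against 28.7% of all merged sites. In HOXA13 alone there were 39 (22.7%, against 24.4%) and in HOXD13 alone 21 (12.2%, against 12.6%). A further 54 (31.4%, against 34.3%) were in no wild-type list, and 26 sites (15.1%, against 19.4%) were in the E11.5 542 HOXD13 list and nowhere else. These shares were near those of the genome. Sites in all 3 wt HOXA13 lists and no wt HOXD13 list numbered 2 of 172, where the genome has 0.897%. None was in all 3 wt HOXD13 lists and no wt HOXA13 list, where the genome has 0.0191%. The first of the 2, Msx2 −71.2 kb, was weak, with fold enrichments of 2.74, 2.31 and 1.86. The second, Dlx2 −54.6 kb, had 3.65, 5.17 and 2.51 in wt HOXA13, 8.37 and 6.84 in 542 HOXA13, and 4.79 in 542 HOXD13. The 542 HOXD13 list holds both sites.

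**Figure D2:**
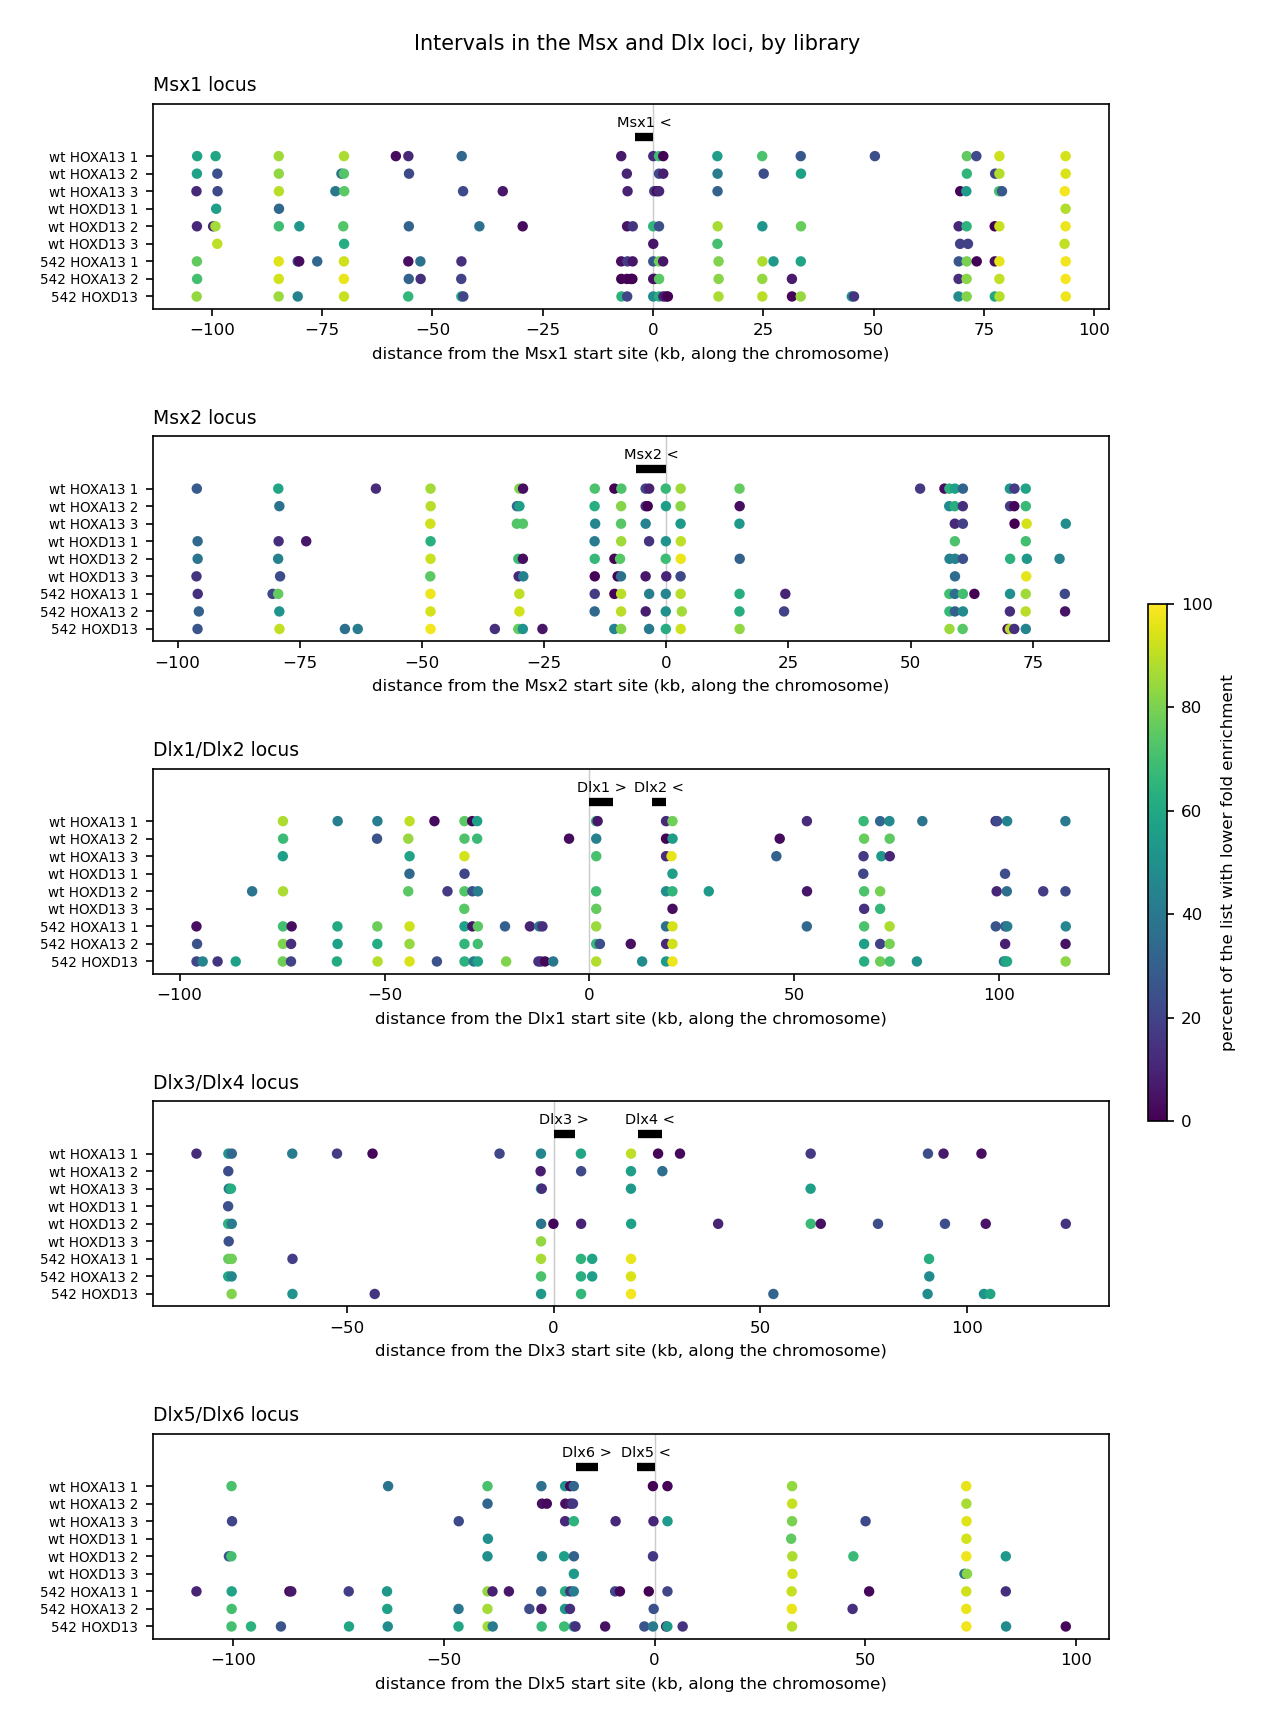
Every interval with its main summit, plotted by distance from the start of a member (x axis, kb along the chromosome, arrows give the direction of transcription) and by library (y axis), coloured by the percent of the same list with a lower fold enrichment. Columns of points are shared sites: the column 93.5 kb upstream of Msx1 (to its right, as Msx1 is on the minus strand) is filled in all 9 libraries, at 88.4 to 98.4 percent, and the stretch between Dlx6 and Dlx5 holds only 4 points.

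At the promoters, Msx1, Msx2, Dlx2 and Dlx6 were called in most lists, and Dlx3, Dlx4 and the first start of Dlx1 in few or none. A promoter counted as called where a summit lay within 1000 bp of an annotated start. By this measure 4 of the 8 members were called in at least 4 of the 6 wild-type lists, against 37.4% of 21938 protein-coding promoters. At least 1 wild-type list held 7 of the 8, against 63.0%, and 0 of 8 were in all 6, against 19.7%. With 8 genes, these counts do not set the members apart from other promoters. For the promoter of the inserted reporter, the paper regards a CUT&RUN peak as likely unspecific signal of the nuclease. Whether the promoter calls here reflect HOX13 binding was not tested.

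Msx2 (chromosome 13, 53466884 to 53473074, minus strand) had the most widely called promoter, in 8 of 9 lists. Its pileup was 2.61 and 1.36 read ends per M in wt HOXA13 replicates 1 and 2, and no summit was called in replicate 3. In wt HOXD13 it was 1.14, 2.19 and 1.08, in 542 HOXA13 2.29 and 2.03, and in 542 HOXD13 3.11. Fold enrichments ran from 2.68 to 4.92, and in 7 of these lists the summit lay 65 to 110 bp inside the gene. Msx1 (chromosome 5, 37820485 to 37824583, minus strand) was called in 7 lists, with pileups of 0.959 and 0.830 in wt HOXA13 replicates 1 and 3, and 1.49 and 0.813 in wt HOXD13 replicates 2 and 3. The 542 lists had 1.88, 1.21 and 3.21. Fold enrichments at Msx1 overlapped, at 2.58 and 2.66 in wt HOXA13, 3.91 and 2.60 in wt HOXD13, and 3.06, 2.67 and 3.36 in the 542 lists. The groups of both antibodies overlapped at both Msx promoters.

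Dlx2 was called at its start in all 3 wt HOXA13 lists, at 0.670, 0.467 and 0.606 read ends per M, and in 1 wt HOXD13 list, at 0.886. The 542 lists had 1.28, 0.782 and 1.34. Dlx6 was called in all 3 wt HOXA13 lists, at 0.796, 0.552 and 1.26, and in wt HOXD13 replicates 2 and 3, at 0.585 and 0.894. Its summits lay at −652 to −422 bp from the start, inside an intron of the antisense transcript Dlx6os1. The 2 lists that missed it were wt HOXD13 replicate 1 and 542 HOXA13 replicate 2.

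Dlx5, the partner of Dlx6, was called in 5 lists at 0.380 to 0.763 read ends per M, with summits 239 to 418 bp inside the gene. Dlx4 was called in wt HOXA13 replicates 1 and 2 alone and at 2 different places, 892 bp inside and −148 bp from the start. Dlx3 was called once, in wt HOXD13 replicate 2, at 2.1-fold enrichment, which was higher than in 1.27% of the intervals of that list.

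Dlx1 is the member whose call depends on the annotation. No list had a summit within 1000 bp of the start used here, at position 71528113 of chromosome 2. A site 1.65 kb inside the gene, in an untranslated part of its transcript and in an intron of Dlx1as, was called in 8 lists, at up to 4.87, 3.4 and 3.98-fold in wt HOXA13 and 4.14 and 4.30-fold in wt HOXD13 replicates 2 and 3. The 542 lists had 7.83, 5.38 and 7.66. With all 6 transcript starts of the full annotation, Dlx1 had a promoter summit in 8 lists, and 5 of 8 members were in at least 4 wild-type lists.

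**Figure D3:**
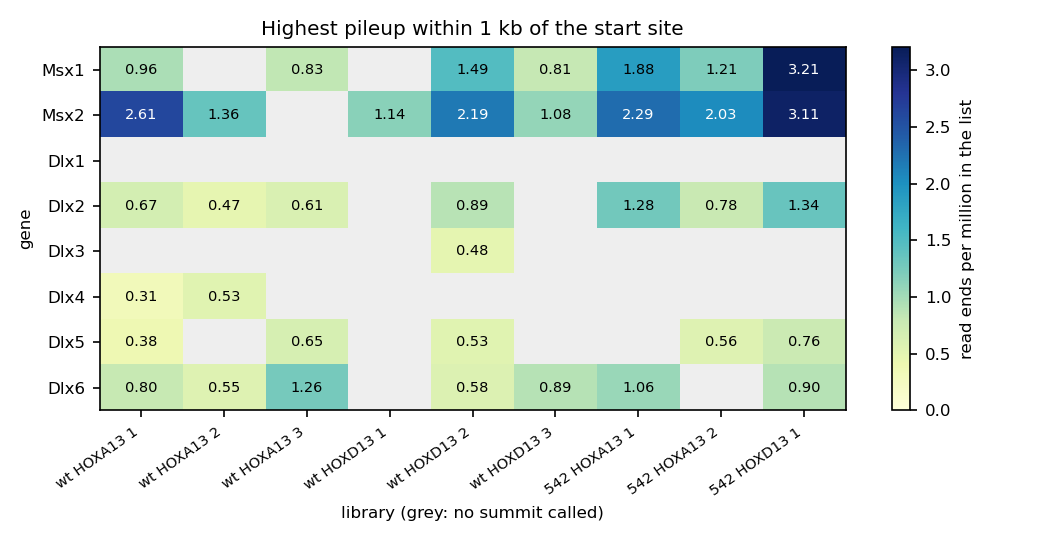
Highest pileup within 1 kb of an annotated start of each member (rows) in each library (columns), in read ends per M, with grey where no summit was called. Msx1 and Msx2 reach 3.21 and 3.11 in the 542 HOXD13 library, while called Dlx promoters stay between 0.308 and 1.34.

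Set beside the members, 39 of 40 other NK-like homeobox genes were found in the annotation. Of these, 5 had a promoter summit in at least 4 wild-type lists and 0 in all 6, with a median of 1 list. The 18 genes of the apical ridge and of BMP signalling had 4 in at least 4 wild-type lists. Bmpr1b, a BMP receptor, and Id3, a target of BMP signalling, were in all 9 lists, as were 4088 of the 21938 coding genes. Of the other Id genes of that list, Id2 was in 4 lists and Id1 in none. Bmpr1a was in 8 lists, while Bmp4 and the ridge genes Fgf8, Fgf17 and Sp6 were in none. The members had a median of 6 lists, all coding genes of 3.

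In the Msx1 locus the leading site was far upstream. Msx1 −93.5 kb (chr5:37917053-37918845), outside any annotated gene, was called in all 9 lists. Its fold enrichments were 9.91, 9.11 and 7.19 in wt HOXA13, 6.12, 9.47 and 5.30 in wt HOXD13, 12.7 and 13.2 in 542 HOXA13, and 11.1 in 542 HOXD13. It ranked above 88.4% or more of the intervals in each list. The 2 wild-type groups overlapped, and both 542 HOXA13 values lay above all 3 of wt HOXA13. Fold enrichment ranks intervals only within a list, however. Among the sites called in all 5 HOXA13 lists, the ranks of this site overlapped. The percent of those sites that were lower was 80.7, 88.7 and 96.2 in wt HOXA13 and 93.2 and 95.9 in 542 HOXA13. Pileups ran from 0.908 to 5.96 read ends per M.

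Other widely called sites of this locus were Msx1 84.8 kb, in an untranslated exon of Cytl1, and Msx1 −14.6 kb, between genes, each in 8 lists. Both missed a wt HOXD13 list. The Cytl1 site held the consensus at its summit and reached 10.9-fold. Msx1 −1.36 kb, next to the promoter, was in 7 lists at 2.24 to 6.67-fold.

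In the Msx2 locus, strong sites lay on both sides of the gene. Msx2 48.2 kb, in an intron of the noncoding gene Gm2762, was called in all 9 lists and held CTCGTAAA at the summit. Its fold enrichments were 7.63, 7.39 and 5.66 in wt HOXA13, 4.36, 7.34 and 4.23 in wt HOXD13, and 12.4, 9.98 and 11.7 in the 542 lists. Msx2 −2.95 kb, just upstream, was in all 9 lists at 2.94 to 9.36-fold. Its highest and its lowest values were both from wt HOXD13, in replicates 2 and 3. Msx2 9.24 kb, beyond the end of the gene, had pileups of 3.69, 3.04 and 2.13 read ends per M in wt HOXA13 and 9.28 and 7.33 in 542 HOXA13. In wt HOXD13 it had 1.66, 2.29 and 1.30, and in 542 HOXD13 4.99. It was the tallest site of the loci in both 542 HOXA13 lists, but Msx2 −2.95 kb was taller in wt HOXD13 replicate 2, at 4.03, and in 542 HOXD13, at 5.12. The intron of Msx2 held a site 4.0 kb from the start, in 8 lists at 2.15 to 3.65-fold.

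In the Dlx1/Dlx2 locus the site closest to a member among those in all 9 lists was Dlx2 −1.62 kb, between genes. Its fold enrichments were 6.20, 3.85 and 6.45 in wt HOXA13, 4.10, 3.90 and 2.51 in wt HOXD13, 10.3 and 9.80 in 542 HOXA13, and 11.2 in 542 HOXD13. The wild-type groups overlapped and the 3 values of the 542 lists were all higher. Its ranks among the sites called in all 5 HOXA13 lists overlapped, however. The percent of those sites that were lower was 42.5, 26.9 and 92.9 in wt HOXA13 and 79.8 and 82.0 in 542 HOXA13. Dlx1 −30.5 kb, in an intron of Metap1d, held CCAATAAA and ranged from 3.18 to 5.71-fold, and here 542 HOXA13 (4.45 and 5.26) was not above wt HOXA13 (5.65, 4.92 and 5.71). Dlx2 −48.4 kb was weaker, at 2.64 to 5.80-fold. Between Dlx1 and Dlx2 there was no wild-type call, and the 2 sites there came from 1 list each, 542 HOXA13 replicate 2 at 2.51-fold and 542 HOXD13 at 3.34-fold.

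Among the stretches between paired genes, that between Dlx3 and Dlx4 held the strongest sites. Dlx4 7.43 kb was called in 7 lists, at 8.73, 3.89 and 3.41-fold in wt HOXA13, 3.47-fold in wt HOXD13 replicate 2 only, 11.6 and 10.4-fold in 542 HOXA13 and 11.7-fold in 542 HOXD13. Dlx3 6.64 kb was in 6 lists at 2.39 to 5.11-fold and holds the consensus on the minus strand (TTTATTAG as printed above). Dlx3 9.33 kb was called in both 542 HOXA13 lists alone, at 4.60 and 4.52-fold. Outside the pair, Dlx3 −3.03 kb was in 8 lists at 2.54 to 8.26-fold. The 1 site of this locus in all 9 lists lay at the promoter of Pdk2, a metabolic kinase, 78.5 kb upstream of Dlx3.

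In the Dlx5/Dlx6 locus the most widely called sites lay outside the pair. Dlx5 −32.6 kb, between genes, was in all 9 lists, at 7.15, 7.88 and 4.43-fold in wt HOXA13, 4.98, 6.26 and 5.66-fold in wt HOXD13, 9.43 and 11.7-fold in 542 HOXA13 and 7.99-fold in 542 HOXD13. The other site in all 9 lists was the promoter of Sdhaf3, 73.9 kb from Dlx5, at 3.23 to 11.6-fold. Between Dlx5 and Dlx6 there were 3 sites, all weak, and no wt HOXD13 list held any. Dlx5 9.32 kb was called in wt HOXA13 replicate 3 at 2.55-fold and in 542 HOXA13 replicate 1 at 2.85-fold. Dlx5 8.25 kb was called in 542 HOXA13 replicate 1 alone, at 2.13-fold. Dlx6 6.99 kb, in an intron of Dlx6os1, was called in 542 HOXD13 alone, at 2.14-fold. None of the 3 held the consensus within 25 bp.

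By place, 8 sites were classed at a member promoter, 8 between paired genes, 5 elsewhere inside a member, 6 at promoters of other coding genes, 52 inside other genes and 93 between genes. Sites within 1 kb of a member start were in a median of 6 lists, and those over 50 kb away in a median of 2. All 11 sites shared by every list lay over 1 kb from the nearest member start, 3 of them within 10 kb, 4 between 10 and 50 kb and 4 beyond.

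Promoter intervals of the loci ranked lower than distal ones by fold enrichment, but not by −log10 p. Whether promoters of other genes do the same was not tested. The median percentile in the list was 25.3 ± 17.0 for member promoters and 44.1 ± 4.76 for intervals over 1 kb from a coding start and outside the members (SD, n = 6 wild-type libraries). The difference was −18.8 points ± 14.3, negative in 6 of 6 libraries (p = 0.03125 by the same exact sign-flip test, adjusted p = 0.0781). Ranked by −log10 p in place of fold enrichment, the difference was 0.40 points (exact p = 1). With promoters of 2000 bp it was −16.4 points (exact p = 0.125) and turned positive in wt HOXD13 replicates 1 and 2, at 4.11 and 4.64 points. The local background behind the fold enrichment was higher at promoters in all 6, at 1.84 to 2.77 times the genome background against 1.17 to 1.70 times at distal intervals. Between 1 and 6 promoter intervals stood behind each library's median.

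The HOX13 consensus lay within 25 bp of 18 of the 172 site summits, and at 5 of the 25 sites in 8 or 9 lists. The share over such widely called sites of the genome was not computed, so that the 5 of 25 does not set the loci apart. None of the 8 member promoter sites held it. Over the main summits of wild-type intervals in the loci, 9.52% ± 4.93 held it, against 1.90% ± 1.55 of control windows 1000 bp to each side (SD, n = 6). The genome-wide share at wild-type main summits was 10.3%. The difference was 7.62 points ± 5.97, positive in 5 of 6 libraries (p = 0.0625 by the same exact sign-flip test, adjusted p = 0.104). The exception was wt HOXD13 replicate 3, with 1 of 31 summits (3.23%, 95% Wilson interval 0.572 to 16.2) against 4.84% of its controls. With a window of 100 bp it had 16.1% against 4.84%, and the mean difference was 16.5 points (positive in 6 of 6, exact p = 0.03125, adjusted p = 0.0521). The highest wild-type share was in wt HOXA13 replicate 2, with 10 of 58 summits (17.2%, 9.64 to 28.9). These intervals cover counting error only. RefSeq promoter windows of 4 members (Dlx1, Dlx2, Msx1 and Msx2, GRCm38.p6) held 0 matches, where 10.3% of 32851 windows held at least 1.

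**Figure D4:**
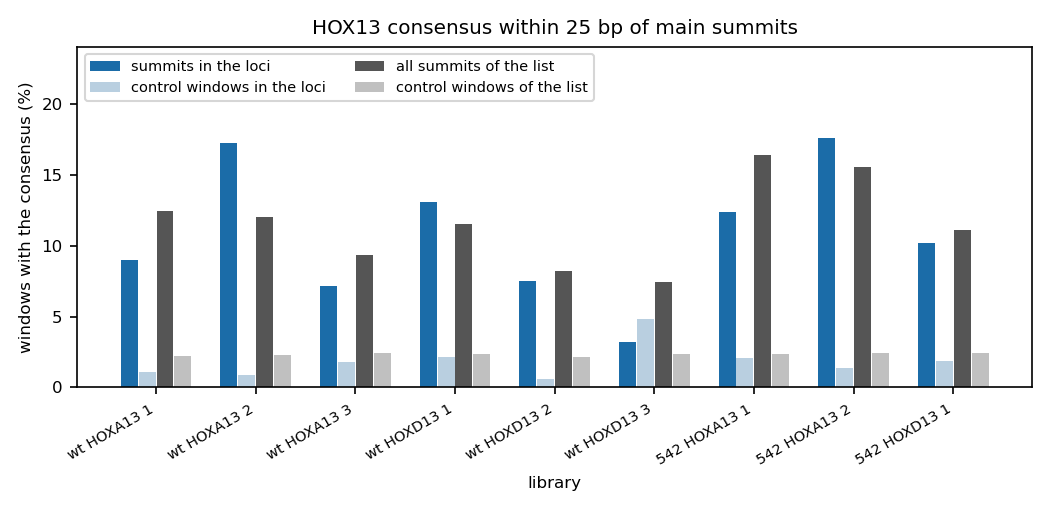
Percent of windows of 50 bp with the consensus (y axis) in each library (x axis), at main summits in the loci and in their control windows, and the same over the whole list. The loci lie above their controls in all libraries but wt HOXD13 replicate 3, where the bars are 3.23% and 4.84%.

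To compare sites between groups, each site was ranked by fold enrichment among the sites called in every list of both groups, as the percent of those sites that were lower. Between wt HOXA13 and wt HOXD13, 14 sites of the loci could be ranked. Higher ranks in wt HOXA13 without overlap were found at 0 of 14, against 9.30% of 13365 such sites, and higher ranks in wt HOXD13 at 1 of 14, against 10.1%. The median rank of the 14 was 35.6 in wt HOXA13 and 43.8 in wt HOXD13. The 1 site was Msx1 98.9 kb, with ranks of 5.93, 2.63 and 5.53 in wt HOXA13 and 38.1, 42.5 and 76.9 in wt HOXD13. Ranked within the whole list, this site overlapped between the antibodies and 0 of 14 were higher in wt HOXD13, against 2.90% in the genome. At the other 13 the ranks of both antibodies overlapped. With replicates 1 and 2 only, 4 of 19 sites were higher in wt HOXA13 (27.3% in the genome) and 5 in wt HOXD13 (26.9%).

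Msx1 98.9 kb (chr5:37725027-37726100), between genes and downstream of Msx1, was also the 1 site of the loci called in all 6 wild-type lists and in none of the 3 lists of the 542 line. It was singled out after its values were seen. The stretch printed above holds a short tandem repeat beside the median summit, and whether this affects mapping was not tested. In the genome, 53 of 193812 sites had this pattern (0.0273%). Its fold enrichments were 4.33, 2.96 and 2.78 in wt HOXA13 and 4.10, 6.02 and 5.26 in wt HOXD13. The pileups were 44, 24 and 15 read ends in wt HOXA13 and 20, 60 and 25 in wt HOXD13, all small. A list of 542 HOXA13 and the list of 542 HOXD13 were longer than any wild-type list.

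Sites of the loci ranked higher in 542 HOXA13 than in wt HOXA13 more often than the reverse. Of the 33 sites called in all 5 lists, 13 (39.4%) ranked higher in both 542 libraries than in all 3 wild-type ones, against 16.3% of 27085 such sites in the genome. The reverse held at 2 of 33 (6.06%), against 16.1%. The median rank of the 33 was 37.1 in wild type and 51.7 in 542, and the median difference was 13.8 points, against 0.0351 over all sites. The 13 lay in all 5 loci. The count depended on wt HOXA13 replicate 3, without which it was 25 of 44 sites, where the genome has 26.9%. No test over the sites was made, and the genome sites were not matched to the 33 for place. At member promoters the median local background was 4.523 and 4.005 times the genome background in 542 HOXA13 (4 and 5 intervals). It was 2.29, 1.84 and 2.69 times in wt HOXA13 (6, 4 and 5 intervals). At distal intervals it was 1.53 and 1.55 times in 542 HOXA13 and 1.53, 1.70 and 1.65 times in wt HOXA13. Whether the background at promoters shifts the ranks of distal sites was not tested. Over the whole lists, the consensus lay within 25 bp of 16.4 and 15.6% of main summits in 542 HOXA13. In wt HOXA13 it lay at 12.4, 12.0 and 9.37%. Whether this difference between the libraries bears on the ranks was not tested. The line, the genome used for mapping and the set of libraries changed together and cannot be told apart here.

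The largest rise was at Dlx4 7.43 kb, whose rank was 44.5 ± 23.5 in wild type (SD, n = 3) and 87.0 ± 2.15 in 542 (n = 2). Msx1 −14.6 kb stood at 12.2, 15.5 and 16.9 in wild type and at 46.3 and 58.2 in 542. Dlx2 −54.6 kb stood at 7.45, 53.1 and 4.78 against 62.1 and 53.1, where the second wild-type library all but reached the lower 542 value. Msx2 14.6 kb, named after its values were seen, went from 30.4, 35.6 and 27.3 to 1.36 and 7.41, and Dlx1 −30.5 kb from 34.8, 48.6 and 86.7 to 14.0 and 31.5. Ranked by −log10 p, 12 of 33 sites were higher in 542 (17.9% in the genome) and 2 lower (17.0%), and neither Dlx2 −54.6 kb nor Dlx1 −30.5 kb was among them.

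**Figure D5:**
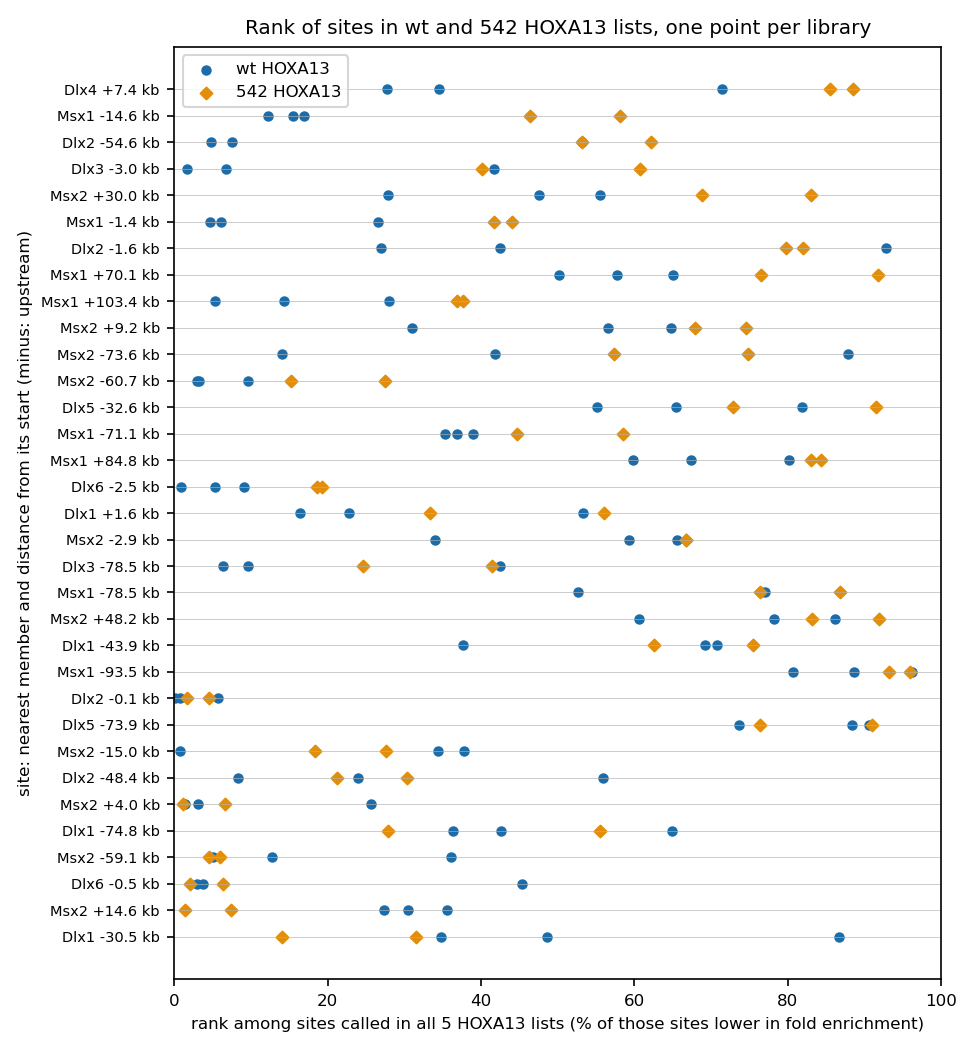
Rank (x axis, percent of the 27085 sites called in all 5 HOXA13 lists that were lower in fold enrichment) of the 33 sites of the loci (y axis, ordered by the difference of the means), with a point for each library. Diamonds of 542 lie to the right of all wild-type circles at 13 sites and to the left at 2.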

How the data were processed

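CUT&RUN peak lists of 9 distal forelimb libraries (wt HOXA13 and wt HOXD13, 3 each, 542 HOXA13, 2, and 542 HOXD13, 1) were analysed, grouped by their labels. By the study's methods, the authors trimmed reads with Cutadapt, mapped them with Bowtie (the 542 libraries on the mutant genome), dropped poorly mapped and duplicate reads with SAMtools and Picard, converted them with bedtools, and called peaks in each library with MACS2 (q of 0.05, read ends extended to 200 bp, no control). The deposited lists give a score for display, the fold enrichment over local background (a ratio), the −log10 p-value and the −log10 q-value of each summit, and the summit's offset.

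Pileup and depth were solved from the deposited fold enrichment and −log10 p, and gave whole read ends at 100% of the summits tried (within 0.001). Intervals overlapping by at least 1 bp formed a site. Genes and promoters (1000 bp around a start) came from GENCODE M21 on GRCm38 (mm10), the consensus was searched in 50 bp windows with control windows 1000 bp away, and RefSeq promoter windows matched 4 of 8 members. Distal intervals lay over 1000 bp from every protein-coding start and outside member bodies. Tests were two-sided exact permutation tests over libraries, adjusted over 5 by Benjamini-Hochberg, and were checked on simulated data. Python 3.11.15, pandas 2.3.3, numpy 2.4.6, SciPy 1.17.1, matplotlib 3.10.9, pysam 0.24.0 and samtools 1.23.1 were used.

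The members and lists were chosen with earlier results of these data known. Sites were named if they lay at a member start or between paired genes, were among the 3 called in most lists in a locus, or were in all wild-type lists of 1 antibody and none of the other. Sites inside members, and those said to be, were added after their values were seen. Alternatives covered peak thresholds, flank, site definition, promoter distance, ranking, consensus, window and left-out libraries. Depth, 36.9 to 65.5 M read ends, limits which weak sites pass, and Wilson intervals cover counting error only.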

Additional observations from a re-analysis of the deposited data

How the results depend on the processing

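The log2 density ratio (1.28 to 1.34 with a library left out) and the consensus difference (5.87 to 9.47 points) kept their direction in all 12 alternatives each. With a library left out or blocks, 5 or fewer values cannot pass 0.05 in the exact test, and 6 cannot after the adjustment. This says nothing of stability. The consensus difference was 16.5 points in 100 bp windows, 17.5 at a fold enrichment of at least 5 and 19.96 with the cores ATAAA and GTAAA. The promoter rank difference ran from −22.3 to −15.8 with a library left out and turned to 0.40 by −log10 p, and was −16.4 with promoters of 2000 bp and −12.3 with replicates 1 and 2 only. The log2 ratio of wt HOXA13 to wt HOXD13 turned to −0.083 at −log10 q of at least 5, and ran from −0.0059 to 0.16 with a library left out (−0.0059 without wt HOXD13 replicate 3). That of wt HOXA13 to 542 HOXA13 turned to −0.29 at a fold enrichment of at least 5, to −0.083 at −log10 q of at least 5 and to −0.26 in the top 20000 intervals, and ran from −0.0066 to 0.028 with a library left out (−0.0066 without wt HOXA13 replicate 1). The cause was not tested. Sites in all wild-type lists fell from 14 to 1 at a fold enrichment of at least 5, 6 at −log10 q of at least 5 and 8 with flanks of 50 kb, and those in all 9 lists from 11 to 1, 6 and 7. With a wild-type list left out, chosen after seeing the data, these counts were 14 to 21 and 11 to 18. Also chosen after seeing the data, the rank counts with a library left out were 0 to 3 higher in wt HOXA13 and 1 to 3 in wt HOXD13, and 3 to 4 higher in wt HOXA13 and 12 to 25 in 542 HOXA13. With replicates 1 and 2 only they were 4 and 5, and 4 and 25, and the whole-list ranking gave 0 higher in wt HOXD13, losing Msx1 98.9 kb.

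With the replicate number as a block (replicate block), the values were 0.09 (exact p = 0.5) between antibodies, 0.03 (exact p = 1) between wt and 542 HOXA13, 1.30 for density, −18.8 for promoter rank and 7.62 for the consensus (exact p = 0.25 each), the last 3 too small in number of blocks to pass. Same-numbered wild-type libraries correlated at 0.0855, 0.144 and 0.344 in their deviations, and wt HOXA13 replicate 1 correlated best with wt HOXD13 replicate 2 (0.224), so the numbers were not taken as pairs.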
